A study of Rattus norvegicus with 2 samples.

Results

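The 10 genes described here switch fatty acid and sterol synthesis on and off in the liver, and were followed in rats fed olive oil. They are Srebf1, Srebf2, Scap, Insig1, Insig2, Mlxipl, Mid1ip1, Thrsp, Acaca and Fasn, taken by name together with every probe set annotated to exactly 1 gene. All 10 were on the array, with 18 probe sets of the 31042 on it that are not controls, and they stand among 14217 genes that could be named. RNA from the livers of 2-month-old male Wistar rats of 250 to 300 g, from an outbred strain, was hybridised to Affymetrix rat arrays. Of the 2 arrays, 1 held liver RNA of rats killed 4 h after a single feed of 5 ml olive oil, stated as 16 ml per kg, and the other that of fasted rats without a fat meal. Both groups had gone without food for 18 h beforehand, and whether fasted rats waited the additional 4 h is not stated. The design asks which liver transcripts differ while dietary fat is entering the circulation. With 1 array per group, and no statement of how many livers each array holds, no difference below has a replicate check, a p-value or an error over animals.

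SREBP proteins, the products of Srebf1 and Srebf2, are made as membrane proteins of the endoplasmic reticulum. The escort protein SCAP carries them to the Golgi, where proteases release the part that enters the nucleus, and INSIG proteins hold SCAP back when sterols are plentiful. In liver, SREBP-1c raises fatty acid synthesis in response to insulin and to the oxysterol receptor LXR, SREBP-2 raises cholesterol synthesis and uptake, and ChREBP, the product of Mlxipl, answers to carbohydrate. Acaca and Fasn encode acetyl-CoA carboxylase 1 and fatty acid synthase, the enzymes that build fatty acids. Mid1ip1 and Thrsp encode related small proteins, known in rodents as MIG12 and Spot 14, of which MIG12 binds acetyl-CoA carboxylase and raises its activity.

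The regulators of fatty acid synthesis were split, with Mid1ip1 and Srebf1 lower and Thrsp higher in the olive oil array, each by more than 2-fold. Mid1ip1 was 2.95-fold lower, Srebf1 2.21-fold lower and Thrsp 2.34-fold higher on the brightest probe set of each gene. Acaca and Insig1 were 1.64-fold and 1.55-fold higher, and the other 5 genes lay within 1.5-fold. Thus 1 of the 10 was at least 2-fold higher, where 3.21% of 9209 measured genes were, and 2 of the 10 were at least 2-fold lower, where 2.92% were. Measured here means a mean log2 signal at or above the median of all probe sets, equal to a signal of 41.4, which all 10 genes reached on at least 1 probe set. The median log2 difference over the 10 was -0.17, against -0.01 over all measured genes, and 4 of the 10 were above 0, where 48.3% of measured genes were. At 1.5-fold, 3 of the 10 were higher and 2 lower, against 9.44% and 10.1% of measured genes. The genes had been chosen with earlier results of these data known, so these shares describe them and are no test.

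**Figure D1:**
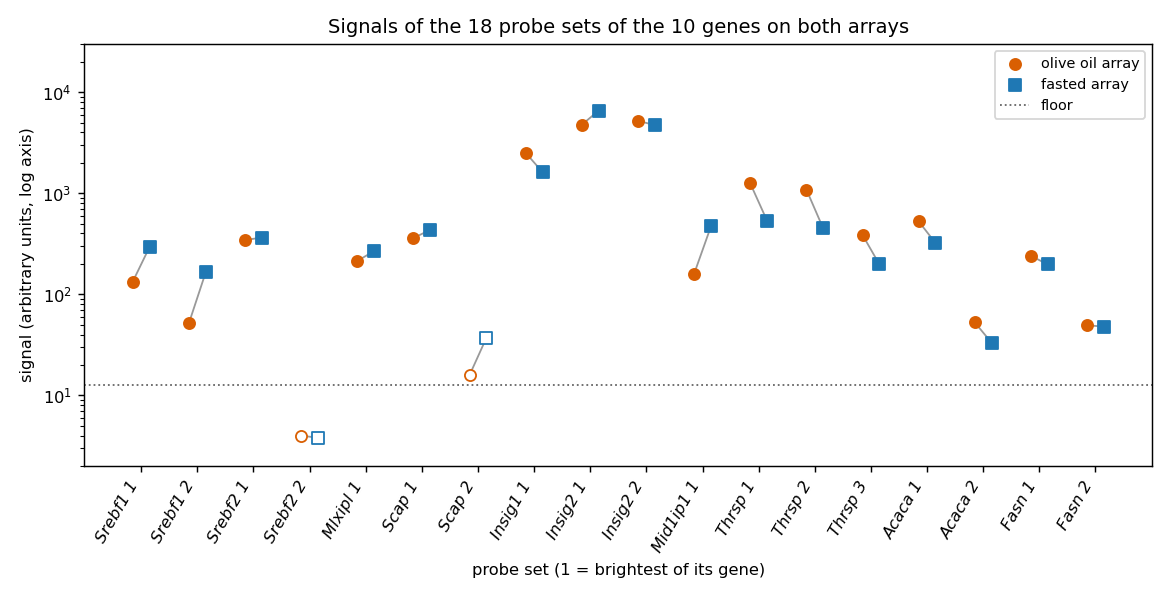
Signal of each of the 18 probe sets on the olive oil array (circles, left of each pair) and the fasted array (squares), on a log axis in arbitrary units. Open symbols mark the 2 probe sets that were too dim to count as measured, and the dotted line is the floor of 12.8 to which lower signals were raised. All 3 Thrsp probe sets lie higher on the olive oil array, both Srebf1 probe sets and the Mid1ip1 probe set lower.

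The sequences before the transcription starts of the 3 genes past 2-fold are given first, with those of Insig1 and Srebf2, which are known SREBP-responsive genes. They are the 250 bases before each annotated start from RefSeq, build GRCr8, which held 10 such windows for 8 of the 10 genes. Capitals mark matches, on either strand, to 4 short motifs: TCACNCCA, which resembles the sterol response element, CACGTG, an E-box, CCAAT, the NF-Y box, and GGGCGG, the GC box bound by Sp1. On the opposite strand CCAAT appears as ATTGG and GGGCGG as CCGCCC, the E-box reads alike on both, and no match printed overlaps another. Srebf1 has 2 annotated starts, and the downstream one leads into the first exon of SREBP-1c, the main form in rodent liver.
Srebf1, upstream start, chr10:45529165-45529414, minus strand: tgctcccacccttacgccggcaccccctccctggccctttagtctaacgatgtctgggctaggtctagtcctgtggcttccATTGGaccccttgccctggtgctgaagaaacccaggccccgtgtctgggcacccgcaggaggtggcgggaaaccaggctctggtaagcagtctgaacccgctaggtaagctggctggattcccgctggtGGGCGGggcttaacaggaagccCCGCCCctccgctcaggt
Srebf1, downstream start, chr10:45519011-45519260, minus strand: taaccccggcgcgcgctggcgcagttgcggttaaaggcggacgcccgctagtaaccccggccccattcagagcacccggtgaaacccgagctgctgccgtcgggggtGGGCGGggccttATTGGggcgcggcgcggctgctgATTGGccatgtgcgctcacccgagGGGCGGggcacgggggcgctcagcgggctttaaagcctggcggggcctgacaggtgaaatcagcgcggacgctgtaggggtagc
Mid1ip1, chrX:14735721-14735970, minus strand: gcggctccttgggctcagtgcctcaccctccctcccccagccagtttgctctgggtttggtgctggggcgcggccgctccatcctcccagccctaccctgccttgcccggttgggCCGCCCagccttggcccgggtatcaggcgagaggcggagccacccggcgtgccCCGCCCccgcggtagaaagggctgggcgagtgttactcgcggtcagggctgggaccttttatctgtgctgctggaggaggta
Thrsp, chr1:161138965-161139214, minus strand: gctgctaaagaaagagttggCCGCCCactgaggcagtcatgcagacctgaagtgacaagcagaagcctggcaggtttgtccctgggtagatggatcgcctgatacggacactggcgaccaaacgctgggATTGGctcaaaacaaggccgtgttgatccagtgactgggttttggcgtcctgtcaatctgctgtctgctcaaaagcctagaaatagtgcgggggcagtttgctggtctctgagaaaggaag
Insig1, chr4:8057770-8058019, minus strand: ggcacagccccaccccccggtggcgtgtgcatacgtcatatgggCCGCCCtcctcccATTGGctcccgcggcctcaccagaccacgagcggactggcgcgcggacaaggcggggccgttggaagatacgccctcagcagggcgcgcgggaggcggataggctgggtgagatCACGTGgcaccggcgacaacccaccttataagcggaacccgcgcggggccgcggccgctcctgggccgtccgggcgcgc
Srebf2, chr7:115543057-115543306, plus strand: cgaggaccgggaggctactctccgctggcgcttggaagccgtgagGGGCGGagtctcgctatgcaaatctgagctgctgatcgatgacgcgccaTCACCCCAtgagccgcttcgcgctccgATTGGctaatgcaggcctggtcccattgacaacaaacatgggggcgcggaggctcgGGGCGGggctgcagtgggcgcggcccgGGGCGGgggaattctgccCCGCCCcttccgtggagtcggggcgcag
Across the 10 windows, the TCACNCCA motif was matched in 3, those of Srebf2 and of 2 nearly coincident starts of Mlxipl, and in 3.24% of all 33469 windows of this length. The CACGTG motif was matched in 2, those of Insig1 and Scap, and in 5.59% of all windows. CCAAT was matched in 8 of 10 and in 34.02% of all, and GGGCGG in 7 of 10 and in 30.5% of all. The windows of the genes past 2-fold shared GGGCGG, matched at 2 places in each Srebf1 window and in that of Mid1ip1, and at 1 place in that of Thrsp. The SREBP-1c window held CCAAT at positions -131 and -108 relative to the start, the Thrsp window at -121, and the Mid1ip1 window at none. A match of letters is a description and says nothing of whether a factor was bound.

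Srebf1, the gene of SREBP-1, was lower on both of its probe sets. On the brightest the signal was 133.6 in the olive oil array and 294.8 in the fasted array. On the other it was 51.8 after olive oil and 165.4 in fasted rats, 3.19-fold lower. The dimmer probe set thus differed more, by 0.53 on the log2 scale, and the mean over both gave -1.41. Among measured genes Srebf1 ranked 176th from the lowest difference, with 1.90% below it. The files do not say which of the 2 starts a probe set reports, so SREBP-1a and SREBP-1c could not be told apart.

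Srebf2, the gene of SREBP-2, was nearly equal on the arrays. Its measured probe set stood at 344.6 in the olive oil array and 364.4 in the fasted array, a log2 difference of -0.08. Its second probe set was listed at 4.0 after olive oil and 3.8 in fasted rats, below the floor on both, and reports nothing. The difference of Srebf1 was lower than that of Srebf2 by 1.06 on the log2 scale, and by 1.59 with the other Srebf1 probe set. Such a gap between genes does not depend on how the arrays were scaled to each other.

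Mlxipl, the gene of ChREBP, had 1 probe set, with a signal of 213.9 in the olive oil array and 268.1 in the fasted array. It was 1.25-fold lower, and 21.9% of measured genes had a lower difference.

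Scap, the escort of both SREBPs, was 1.20-fold lower on its bright probe set, at 360.7 after olive oil and 434.4 in fasted rats. Its dim probe set showed a wider gap, 15.9 in the olive oil array and 37.1 in the fasted array, but its mean signal fell short of the limit for a measured probe set. Both probe sets were lower in the olive oil array, and only the bright one enters the counts above.

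The INSIG genes, whose proteins retain SCAP, were not alike, Insig1 being higher and Insig2 without a settled direction. Insig1, itself a target of nuclear SREBP, stood at 2509.6 after olive oil and 1616.1 in fasted rats on its single probe set. Of measured genes, 91.95% had a lower difference. Insig2, which in rodent liver has a form that is expressed in fasting and lowered by insulin, had 2 bright probe sets that disagreed in sign. One gave 4764.7 after olive oil and 6583.1 in fasted rats, 1.38-fold lower. The other gave 5216.2 after olive oil and 4719.8 in fasted rats, 1.11-fold higher. They lay 0.61 apart on the log2 scale. The log2 difference of Insig1 exceeded that of Insig2 by 1.10 with one probe set and by 0.49 with the other, so that Insig1 was higher relative to Insig2 either way. It exceeded that of Srebf1 by 1.78.

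**Figure D2:**
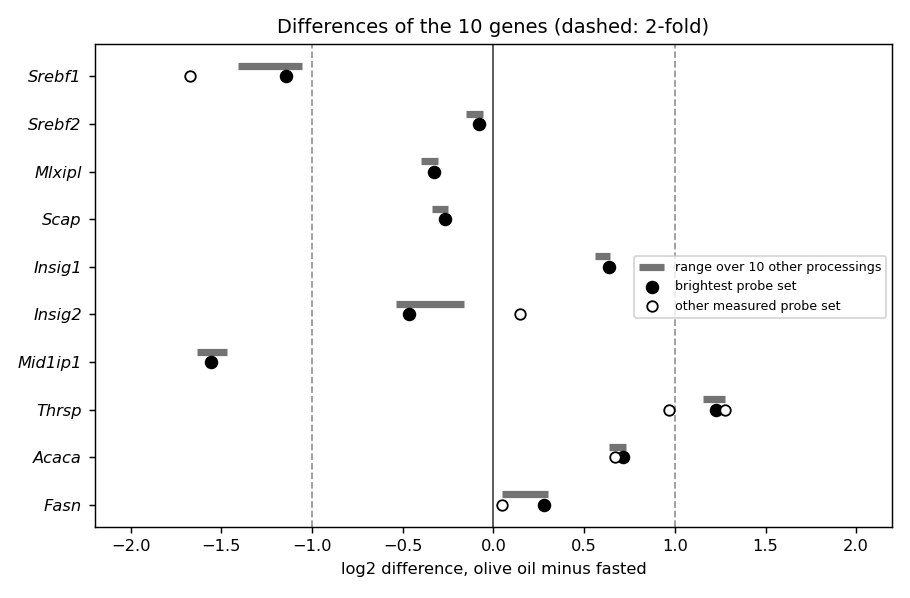
Log2 difference, olive oil minus fasted, of the 10 genes on the brightest probe set (filled) and on other measured probe sets (open), with a grey bar for the range over 10 other ways of processing the arrays. Dashed lines mark 2-fold, which the brightest probe sets of Srebf1, Mid1ip1 and Thrsp passed, and the Insig2 probe sets lie on both sides of 0.

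Mid1ip1, the activator of acetyl-CoA carboxylase, had the largest difference of the 10 in either direction on the brightest probe sets. Its single probe set gave 159.5 in the olive oil array and 470.2 in the fasted array. It ranked 53rd from the lowest of 9209 measured genes, with 0.565% below it.

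Thrsp, its relative, was higher on all 3 of its probe sets. The brightest gave 1251.6 after olive oil and 534.5 in fasted rats. The next gave 1087.2 after olive oil and 448.6 in fasted rats, 2.42-fold higher, and the dimmest 386.8 after olive oil and 198.1 in fasted rats, 1.95-fold higher. No probe set disagreed in direction, with a span of 0.31 on the log2 scale. Thrsp ranked 161st from the highest measured gene. The ratio of Thrsp to Mid1ip1 signal was 6.90-fold higher in the olive oil array, and between 5.76-fold and 7.14-fold higher over the 3 possible pairs of probe sets. In biochemical work on mouse proteins, Spot 14 pairs with MIG12 and lowers its effect on acetyl-CoA carboxylase, which is given here as background and was not measured.

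Acaca, the carboxylase gene, was higher on both probe sets by similar amounts. The bright one gave 527.1 after olive oil and 321.9 in fasted rats. The dim one gave 52.7 in the olive oil array and 33.1 in the fasted array, 1.59-fold higher, and counted as measured only through the olive oil array. The log2 differences of 0.71 and 0.67 were within 0.04 of each other. Of measured genes, 93.4% had a lower difference.

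Fasn, fatty acid synthase, was close to equal. Its brighter probe set gave 240.1 after olive oil and 197.6 in fasted rats, 1.22-fold higher, and its dimmer one 49.4 in the olive oil array and 47.9 in the fasted array, 1.03-fold higher. Neither enzyme gene followed Srebf1, from which Acaca differed by 1.85 and Fasn by 1.42 on the log2 scale. Each pair of probe sets was at least 1.19 apart for Fasn and 1.81 apart for Acaca. The value of 1.81 came from the dim Acaca probe set, which counted as measured only through the olive oil array. Acacb, the second carboxylase gene, whose product limits fatty acid oxidation, was listed at 4.3 after olive oil and 1.4 in fasted rats, below the floor on both.

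Differences between the arrays were wider among dim probe sets. Of probe sets with mean signals between the limit of 41.4 and 181.0, where Srebf1's dimmer probe set lies, 8.67% differed by at least 2-fold between the arrays. Between 181.0 and 619.6, where the brightest Srebf1 probe set and that of Mid1ip1 lie, 5.004% did. Above 619.6, the range of the Insig1, Insig2 and brighter Thrsp probe sets, 3.99% did. The pooled standard deviation among probe sets of the same gene was 0.35 on the log2 scale over 2290 genes and 0.26 over the 5 of the 10 genes that had more than 1 measured probe set. That scatter is between probe sets and holds none of the variation between rats. The differences of Srebf1, Mid1ip1 and Thrsp were each larger than 1 on the log2 scale, and those of Scap, Srebf2, Mlxipl and Fasn were below the scatter of 0.35.

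**Figure D3:**
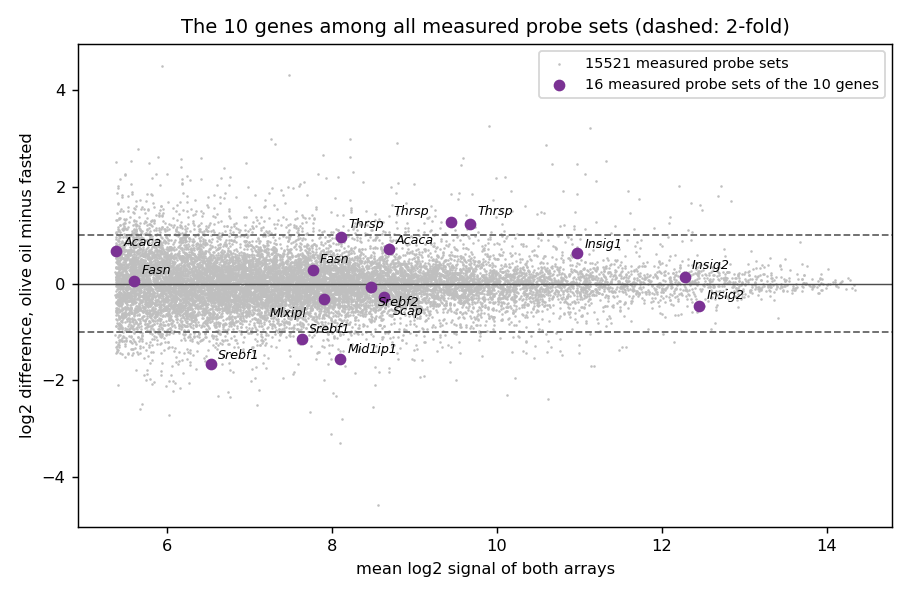
Log2 difference, olive oil minus fasted, against the mean log2 signal of both arrays for 15521 measured probe sets (grey) and the 16 measured probe sets of the 10 genes (purple, named). Dashed lines mark 2-fold, and the grey cloud narrows as signal grows.

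Listed target genes of SREBP-1c in fatty acid synthesis, desaturation and glycerolipid synthesis were mostly lower, in the direction of Srebf1. Acaca, Fasn and Thrsp were not in this list because they are among the 10, and all were above 0. The counts below thus leave out the enzyme genes Acaca and Fasn, at log2 differences of 0.71 and 0.28. Among the 13 listed genes that were measured, 5 were lower by 2-fold or more and 1 was higher by 2-fold or more. A negative log2 difference was found in 10, where 51.7% of all measured genes had one. The median was -0.57 with the brightest probe sets, -0.35 with the mean over probe sets and -0.22 without a filter on dim probe sets. The value of -0.57 is that of the middle gene, whose other measured probe set gave a log2 difference of 0.08. Gpam, which starts glycerolipid synthesis, stood at 43.2 in the olive oil array and 139.2 in the fasted array, 3.22-fold lower. A second probe set gave 28.9 in the olive oil array and 66.0 in the fasted array, 2.28-fold lower, and counted as measured through the fasted array. The desaturase genes Fads2 and Fads1 were 2.62-fold and 2.15-fold lower, and the acyl-CoA synthetase gene Acsl3 2.07-fold lower. Acly, which makes the acetyl-CoA used by the carboxylase, gave 689.9 after olive oil and 736.3 in fasted rats, 1.07-fold lower. Of all measured genes, 2.92% were lower and 3.21% higher by 2-fold or more. All genes of the list share the 2 arrays with Srebf1, so their common direction is not a replicate of it.

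Target genes of SREBP-2 were below 0 in 12 of 18 cases. Among 18 measured genes, 1 was higher by 2-fold or more and 1 lower by as much, while at 1.5-fold 1 was higher and 4 were lower. Over all measured genes, 51.7% were below 0, and 3.21% were higher and 2.92% lower by 2-fold or more. At 1.5-fold, those shares were 9.44% higher and 10.1% lower. The median log2 difference was -0.17, and -0.33 with a filter on signal at the 75th percentile. Sqle, squalene epoxidase, gave 249.4 in the olive oil array and 83.0 in the fasted array, 3.00-fold higher. Dhcr7, of the last step of cholesterol synthesis, gave 260.5 after olive oil and 764.8 in fasted rats, 2.94-fold lower. Fdft1, squalene synthase, was 1.97-fold and 2.01-fold lower on 2 probe sets, and Tm7sf2, a sterol reductase, 1.71-fold lower.

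Around ChREBP, the median log2 difference of 14 measured genes was -0.21, and no gene was 2-fold different. Over all measured genes, 3.21% were higher and 2.92% lower by 2-fold or more. Mlx, the partner without which ChREBP cannot bind DNA, was 1.61-fold higher, at 1168.1 in the olive oil array and 724.6 in the fasted array, with a second probe set 1.26-fold higher. Pklr, liver pyruvate kinase and a classical ChREBP target, was 1.82-fold lower, at 238.6 after olive oil and 433.3 in fasted rats, with a second probe set 2.52-fold lower. Mlx and Mlxipl thus lay on opposite sides of 0.

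**Figure D4:**
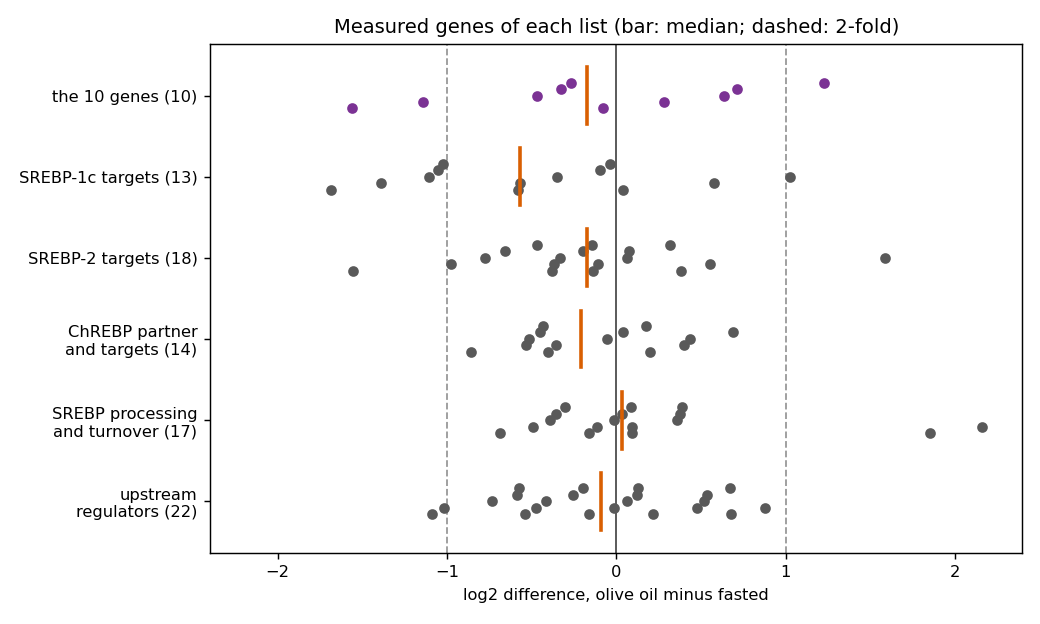
Log2 differences, olive oil minus fasted, of the measured genes of the 10 and of 5 lists around them, with the number of measured genes in brackets, a bar at each median and dashed lines at 2-fold. The SREBP-1c targets have the lowest median, -0.57 (-0.22 without a filter on dim probe sets), and the processing list has 2 genes far to the right. Acaca and Fasn are plotted among the 10 and not with the SREBP-1c targets.

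Genes of the machinery that processes and clears these proteins went both ways, with 2 far above the others. Among 17 measured genes, 2 were higher by 2-fold or more, 0 were lower by as much, 9 were above 0 and 8 below, and the median log2 difference was 0.04. The shares over all measured genes were 3.21% higher and 2.92% lower by 2-fold or more, and 48.3% above 0. Spring1, which in human and mouse cells supports the site-1 protease that cleaves SREBPs, gave 179.7 in the olive oil array and 40.2 in the fasted array, 4.47-fold higher. The fasted signal was under the limit of 41.4, so that this gene counted as measured through the olive oil array. Its second probe set, at 42 after olive oil and 13.6 in fasted rats, was too dim to count and was 3.09-fold higher. Ube2g2, a ubiquitin-conjugating enzyme of the degradation route that also clears INSIG1 in cultured cells, gave 1320.2 after olive oil and 366.0 in fasted rats, 3.61-fold higher, and its second probe set was 4.98-fold higher. Of the protease genes, Mbtps1 differed by 0.09 on the log2 scale, and Mbtps2 was 1.41-fold lower, at 132.8 in the olive oil array and 186.9 in the fasted array. Erlin1, a membrane protein that binds the SREBP, SCAP and INSIG complex, was 1.61-fold lower.

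Upstream regulators of Srebf1 and of acetyl-CoA carboxylase had no common direction. Of 22 measured genes, 10 were above 0 and 12 below, 2 were lower by 2-fold or more and 0 higher by as much. The shares over all measured genes were 48.3% above 0, 51.7% below, 2.92% lower and 3.21% higher by 2-fold or more. Nr1h3, the gene of LXR-alpha, gave 1078.4 in the olive oil array and 1620.0 in the fasted array, a log2 difference of -0.59. Irs1, an adaptor of the insulin receptor, was 2.03-fold lower, at signals of 41.5 after olive oil and 84.2 in fasted rats, and Prkag2, a subunit of the kinase AMPK, 2.12-fold lower. The other measured Prkag2 probe set was 1.76-fold lower, at 31.6 after olive oil and 55.7 in fasted rats, although 2 dim ones were above 0. Usf1, an E-box factor, was 1.66-fold lower, and Foxo1, a factor that insulin holds out of the nucleus, 1.84-fold higher, against 2.85-fold lower on a dim probe set.

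All 6 hepatocyte markers were bright, as the liver label requires, and their summed signal was 79203 in the olive oil array and 76358 in the fasted array. That sum rests on the brightest markers. Tat, tyrosine aminotransferase, was 1.96-fold higher, at 6020 in the olive oil array and 3067.9 in the fasted array, and the other 5 were within 1.5-fold. In whole liver, a change in cell mix and a change in RNA per cell cannot be told apart. Fat cells also express Srebf1, Thrsp, Acaca and Fasn, and their markers were higher in the olive oil array at low signals, with a sum over 5 of 451 after olive oil and 228 in fasted rats. Of these 5, 3 were at least 2-fold higher, and 3 were too dim to count as measured. Fabp4 gave 175.2 after olive oil and 29.4 in fasted rats, Plin1 gave 55.3 in the olive oil array and 15.3 in the fasted array, and Adipoq gave 28.2 after olive oil and 3.2 in fasted rats. Fabp4 counted as measured only through the olive oil array. Lep was at 14.0 in the olive oil array and 16.8 in the fasted array, and Cfd at 177.9 after olive oil and 163.6 in fasted rats. Markers of neutrophils and lymphocytes summed to 478 in the olive oil array and 285 in the fasted array over 5 genes, of which S100a8 was 2.37-fold higher and S100a9 4.02-fold higher, at 253.1 after olive oil and 62.9 in fasted rats, which is most of the summed difference. S100a8, at 75.7 in the olive oil array and 32.0 in the fasted array, counted as measured only through the olive oil array. Ptprc, a marker of white blood cells in general, was lower, at 108.3 in the olive oil array and 158.6 in the fasted array, 1.46-fold, and 1.79-fold on a dim second probe set. On brightest probe sets, 0 of 5 macrophage, 0 of 5 endothelial, 0 of 6 stellate cell, 0 of 5 cholangiocyte and 0 of 3 erythroid markers differed by 2-fold or more. Over all measured genes, 3.21% were higher and 2.92% lower by as much. Counts of 0 among so few markers thus do not show that these cells were unchanged. Only 2 of the cholangiocyte and 2 of the erythroid markers were bright enough to count as measured. The cholangiocyte marker Krt7, at 19.5 after olive oil and 7.3 in fasted rats, was 1.52-fold higher with its fasted signal raised to the floor of 12.8. The part of these cells in the differences of the 10 genes was not tested. As a gauge of RNA integrity, the beta-actin control gave a 3'/5' ratio of 3.20 in the olive oil array against 2.63 in the fasted array, and the GAPDH control 1.34 in the olive oil array against 1.28 in the fasted array.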

How the data were processed

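The authors deposited linear signal intensities, 1 for each probe set on each array, and used Affymetrix Expression Console, per the submitters' processing notes. Algorithm, version and filters were not given in the sources used here. Trimmed by 2% at both ends, the mean signal was 200.1 on either array, so the intensities appear to have been scaled to a common level, which assumes that most transcripts do not shift. No detection call came with them, and having only 2 arrays limits the precision.

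Controls (57 probe sets) were left out. Signals below the 25th percentile, 12.8, were raised to it and log2 was taken, with no further normalization. Differences are olive oil minus fasted. A probe set was measured when its mean log2 signal reached the median, 5.37. A gene's value was that of its brightest probe set. The platform annotation listed 1 gene for 20826 probe sets, several for 436 and none for 9780. Since it can be old, symbols were taken by gene ID from RefSeq's GRCr8 table where the ID was found. It was found for 20758 probe sets, including those whose symbol stayed the same. No test was possible, and 2-fold was used as a fixed limit. Groups follow the samples' titles.

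The 10 genes and all lists were chosen with earlier results of these data known. The 5 pathway lists had 103 entries, of which 90 were analysed, and 8 lists of cell markers were written. Named were all 10 genes, up to 4 genes per pathway list of largest difference among those at least 1.5-fold different, and 9 others whatever their change, of which 6 were analysed. Cell markers were outside this rule and were named after their values were seen. No gene was sought for a pattern like that of the 10, since 2 arrays give 1 difference per gene. The functions were tested on simulated data. Alternatives were array centring, quantile and loess normalization, floors, an offset, filters, the choice of probe set and the fold threshold. The work used matplotlib 3.10.9, pandas 2.3.3, statsmodels 0.14.6 (loess), scipy 1.17.1, numpy 2.4.6 and Python 3.11.15.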

Additional observations from a re-analysis of the deposited data

How the results depend on the processing

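No paired analysis was possible because each group has 1 array. Under 10 other ways of processing the arrays, Srebf1 ranged from -1.41 to -1.05 and Mid1ip1 from -1.63 to -1.47 on the log2 scale. Thrsp ranged from 1.15 to 1.28. Srebf1, Mid1ip1 and Thrsp were past 2-fold under each, and every one of the 10 genes kept its sign under each. For Insig2 that was no check, since no setting took its positive probe set alone. Removing or raising the floor and changing the filter left the value of each of the 10 as it was, so those settings were no check on them. The choice of probe set could not alter Insig1, Mlxipl or Mid1ip1, which have 1 probe set each. Nor could it alter Srebf2 or Scap, which have 1 measured probe set each. The median of the 10 ranged from -0.25 to -0.12. With a threshold of 3-fold, 0 of the 10 genes were higher and 0 lower, where 73 and 49 of 9209 measured genes were. So few genes passed 3-fold that counts of 0 among 10 say little. With 1.5-fold, 3 were higher and 2 lower, where 9.44% and 10.1% of measured genes were. Insig2 ranged from -0.54 to -0.16 and Fasn from 0.04 to 0.30, the lowest Fasn value being that when probe sets with shared-transcript suffixes were left out. The median of SREBP-1c targets ranged from -0.64 to -0.22, and those of the processing list, from -0.12 to 0.09, and of the upstream regulators, from -0.21 to 0.12, changed sign. Centring on array medians moved the median of measured genes to -0.09 and the genes past 2-fold to 245 higher and 330 lower, against 296 and 269. Without a filter on dim probe sets 802 genes were higher and 680 lower, and with a filter at the 75th percentile 132 were higher and 108 lower. The median of SREBP-2 targets ranged from -0.33 to -0.16 and that of the ChREBP list from -0.36 to -0.19. For single genes, a shift under the scatter of 0.35 between probe sets of a gene was taken as no change, and for medians a move within 1.5 times and of one sign. Presence of dim transcripts could not be judged without detection calls.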

Other observations

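The subunits of AMPK, the kinase that phosphorylates and inhibits acetyl-CoA carboxylase, were not alike on the 2 arrays. These genes were picked out after their values were seen. The catalytic subunit genes Prkaa1 and Prkaa2 were 1.60-fold and 1.43-fold higher in the olive oil array, at 405.0 and 2240.4, against 253.7 and 1561.5 in the fasted array. The scaffold gene Prkab1 was 1.39-fold higher. The regulatory subunit gene Prkag1 was 1.34-fold lower, next to Prkag2 given above.

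Fatty acid elongase genes differed in direction. Elovl5 gave 4320.8 in the olive oil array and 6467.0 in the fasted array, a log2 difference of -0.58, with a second probe set 1.62-fold lower. Elovl6, which extends the product of fatty acid synthase, gave 86.5 in the olive oil array and 57.9 in the fasted array, 1.49-fold higher. Lpin1, a phosphatidate phosphatase of triglyceride synthesis, had the highest difference in the SREBP-1c list, 2.04-fold and 1.90-fold higher on 2 probe sets. Sar1a and Sar1b, small GTPases of the vesicles that leave the endoplasmic reticulum, were 1.30-fold and 1.31-fold higher. These genes too were chosen after their values were seen.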
